A study of Mus musculus with 24 samples.

Results

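Monocytes were sorted from the spleens of wild-type (WT) mice as a Ly6C hi and a Ly6C low subset, and the transcriptomes of the 2 subsets were compared. The comparison rested on 8 of the 24 libraries of the series, 4 of each subset, chosen by the genotype and the gate that their labels name. The mice were untreated C57BL/6 animals obtained from a breeder. T cells, B cells, NK cells, neutrophils and erythroid cells were depleted with antibody-coated beads, and CD11b+ cells negative for NK1.1, Ly6G and SiglecF were then sorted as Ly6C high Fcgr4 low or Ly6C low Fcgr4 high. The labels call the cells macrophages, and the study calls them monocytes. Age, pooling of spleens and whether a Ly6C hi and a Ly6C low library of one number came from the same mouse are not given in the sources used here, so P values measure the spread between these libraries, which may be partly technical. The other 16 libraries hold the same 2 gates from mice that lack the lysosomal nucleoside transporter Slc29a3 (Slc29a3-/-) and from mice that lack both Slc29a3 and the RNA sensor Tlr7 (Slc29a3-/- Tlr7-/-), 4 libraries per gate and genotype. They were used only to ask where the subset difference of WT mice differed from theirs.

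Ly6C hi monocytes are the classical subset. They leave the bone marrow through the chemokine receptor Ccr2, enter inflamed tissue and can become macrophages or dendritic cells. Ly6C low monocytes are the nonclassical subset, which largely arises from Ly6C hi cells under the nuclear receptor Nr4a1, crawls along the vessel wall and clears debris. The spleen holds both as a reservoir.

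Expression was measured by amplicon sequencing, with 1 amplicon for each gene, and is given in RPM, the reads of an amplicon scaled to the total of its library. The 8 WT libraries held 12820513 to 14572210 reads, as counted from the even steps between the low values, and 9987 to 10508 amplicons reached 1 RPM. The 3 reads taken as the limit of detection correspond to 0.206 to 0.234 RPM. Since amplicons amplify unequally, levels were compared between libraries and not between genes.

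Marker genes of the subsets were read in every library first. Ccr2 was at 323, 420, 380 and 1783 RPM in Ly6C hi replicates 1 to 4, and at 23.8, 31.9, 26.9 and 223 RPM in Ly6C low replicates 1 to 4. The subsets did not overlap, but replicate 4 was the highest of both. Ace, which encodes angiotensin-converting enzyme, was at 240, 230, 285 and 223 RPM in Ly6C hi and at 1218, 1297, 1099 and 1004 RPM in Ly6C low. Adgre4, an adhesion G protein-coupled receptor of macrophages, was at 360, 332, 354 and 505 RPM in Ly6C hi and at 2100, 1842, 2246 and 1747 RPM in Ly6C low. Both were several times lower in every Ly6C hi library than in any Ly6C low library. Fcgr4, the IgG receptor used for the sort, was at 26 to 40.6 RPM in Ly6C hi and at 605 to 821 RPM in Ly6C low, which checks the gates and is no finding. For each of the 4 genes the exact two-sided permutation test gave P = 0.029, the smallest that 4 against 4 libraries allow. For Fcgr4 the gate set this outcome in advance. Ly6c1 and Ly6c2, the genes of the Ly6C antigen, were not analysed here. The labels matched these markers. Itgam, the CD11b chain, was at 1451 to 2166 RPM in the 8 libraries.

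**Figure D1:**
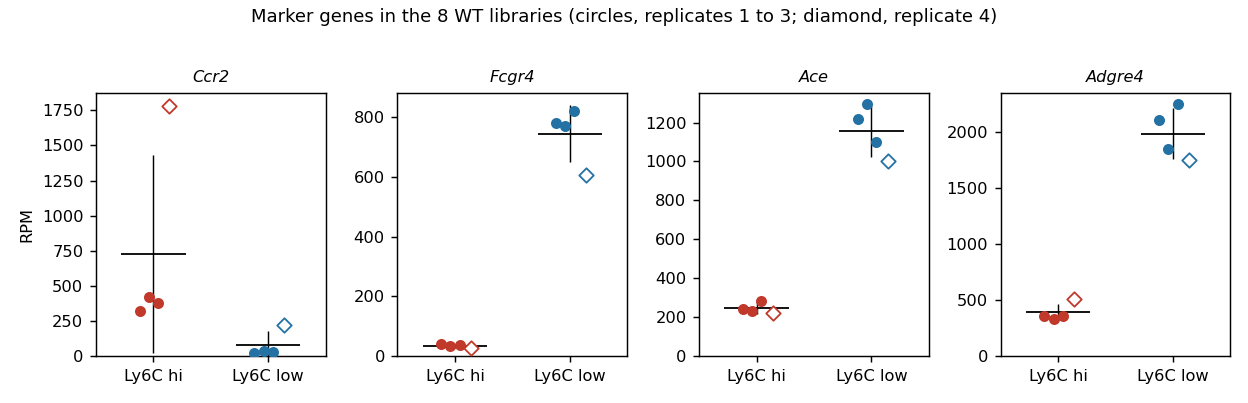
RPM (vertical axis, linear, from 0) of Ccr2, Fcgr4, Ace and Adgre4 in the Ly6C hi and Ly6C low libraries of WT mice. Filled circles are replicates 1 to 3, the open diamond is replicate 4, the bar is the mean of 4 and the vertical line its SD. Ace runs from 223 to 285 RPM in Ly6C hi and from 1004 to 1297 RPM in Ly6C low, and Ccr2 of Ly6C hi replicate 4, at 1783 RPM, stands far above the other 3.

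The sequences just before a listed transcription start of each of these markers are shown. They are the 250 bases before the start in the RefSeq promoter table, build GRCm38.p6, 5′ to 3′ on the strand of the gene. Capitals mark GAGGAA or its reverse complement, the core bound by PU.1 and other Ets factors, and AGGTCA or its reverse complement, the half-site of nuclear receptors. Pparg, the nuclear receptor of lipid handling described below among the transcription factors, is added.
Ccr2, chr9:124101933-124102182, plus strand: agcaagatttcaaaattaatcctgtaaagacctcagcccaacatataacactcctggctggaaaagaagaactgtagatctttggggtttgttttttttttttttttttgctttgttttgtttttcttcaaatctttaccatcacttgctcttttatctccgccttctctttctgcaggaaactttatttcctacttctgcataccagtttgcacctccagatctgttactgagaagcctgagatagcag
Fcgr4, chr1:171018676-171018925, plus strand: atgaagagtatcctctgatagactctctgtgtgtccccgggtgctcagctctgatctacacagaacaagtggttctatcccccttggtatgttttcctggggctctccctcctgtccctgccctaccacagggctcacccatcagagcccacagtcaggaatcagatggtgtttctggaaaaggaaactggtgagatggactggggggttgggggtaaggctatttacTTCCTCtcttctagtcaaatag
Ace, chr11:105967698-105967947, plus strand: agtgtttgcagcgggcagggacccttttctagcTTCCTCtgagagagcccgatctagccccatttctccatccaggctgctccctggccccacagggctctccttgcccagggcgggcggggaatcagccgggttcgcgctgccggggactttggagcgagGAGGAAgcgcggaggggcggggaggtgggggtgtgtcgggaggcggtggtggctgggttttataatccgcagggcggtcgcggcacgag
Adgre4, chr17:55749734-55749983, plus strand: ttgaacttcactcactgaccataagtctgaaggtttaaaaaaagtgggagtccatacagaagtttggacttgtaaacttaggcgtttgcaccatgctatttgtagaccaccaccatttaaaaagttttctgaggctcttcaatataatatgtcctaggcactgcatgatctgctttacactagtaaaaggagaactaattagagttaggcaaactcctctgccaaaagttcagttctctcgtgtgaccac
Pparg, chr6:115362099-115362348, plus strand: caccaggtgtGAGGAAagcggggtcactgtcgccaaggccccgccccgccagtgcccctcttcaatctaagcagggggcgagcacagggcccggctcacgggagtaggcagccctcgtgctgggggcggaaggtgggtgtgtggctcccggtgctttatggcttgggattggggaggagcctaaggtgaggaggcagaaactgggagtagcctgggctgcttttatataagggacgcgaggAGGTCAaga
The Ets core lay 22 bases before the start of Fcgr4 and 89 and 217 bases before that of Ace. A second Ace window in the table, not printed, held no GAGGAA and 1 AGGTCA. The windows of Ccr2 and Adgre4 held neither motif. In the GENCODE annotation Ccr2 begins at base 124101950, so most of its window lies inside that gene. Pparg begins there at base 115360951, before its printed window. In the Pparg window, 1 of 3 listed for this gene, the nuclear receptor half-site began 9 bases before the start. Of the windows not printed, that at chr6:115360894-115361143 held AGGTCA and no GAGGAA, and that at chr6:115421816-115422065 held neither. Over all 32851 windows of the table, 23.3% held GAGGAA and 14% held AGGTCA on either strand, so a match in 1 window is common and describes letters only.

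Replicate 4 of both subsets stood apart from replicates 1 to 3 before any comparison of the subsets was made. Xist, the RNA that coats the inactive X chromosome, was at 476 to 695 RPM in replicates 1 to 3 and was listed at 0 in replicate 4 of both subsets, and Ddx3y, on the Y chromosome, was at 97.0 and 197 RPM in replicate 4 and at 0 in the others. The summed RPM of 26 immediate early genes, which are switched on within minutes of cell stress or handling, was 19856 to 19964 in Ly6C hi replicates 1 to 3 and 2823 in replicate 4, and 17735 to 23262 against 4149 in Ly6C low. The labels also give replicates 1 to 3 barcodes 11 to 16 and replicate 4 barcodes 29 and 35. Sex, this response and the barcode range cannot be told apart from each other, but each is present in both subsets. Results are given below for all 8 libraries, and for some genes and lists also for replicates 1 to 3 and for replicate 4. A range over 4 libraries does not show whether both sets of replicates passed 1.5-fold.

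The main difference between the subsets covered a large part of the transcriptome, and more genes were called higher than lower in Ly6C hi. Of 10432 genes with at least 1 RPM in 4 or more libraries, 2866 (27.5%) differed by over 1.5-fold at an adjusted P under 0.05 (limma on log2(RPM + 1), Benjamini-Hochberg). Of these, 1885 (18.1% of the genes tested) were higher and 981 (9.4%) were lower in Ly6C hi. By over 4-fold, 399 genes were higher and 126 were lower. The subsets did not overlap for 3584 genes (34.4% of those tested), among them 2581 of the genes called. The median log2 difference over all genes tested was 0.07. It was 0.12 in replicates 1 to 3 and -0.11 in replicate 4, so the lean toward Ly6C hi was not shared by replicate 4. With TMM scaling the counts lay closer together, at 1675 higher and 1243 lower. In 208 of the genes tested, 1 RPM was reached in libraries of one subset only, and 200 of these were called, as the filter makes likely.

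Both sets of replicates showed most of these differences. In replicates 1 to 3 alone, 2404 genes were higher and 1052 lower in Ly6C hi. Of those, 86.4% and 96.8% had the same sign in the pair of replicate 4 libraries, which took no part in that call, and 57.7% and 75.7% exceeded 1.5-fold in the same direction there. Over all genes tested, 42.5% were higher and 57.4% lower in Ly6C hi of replicate 4, and 17% and 20.2% passed 1.5-fold. Of the genes called over all 8 libraries, 42 of the higher and 2 of the lower had the opposite sign in replicate 4. Both sets exceeded 1.5-fold in the called direction for 1349 of the higher and 765 of the lower. Called genes described below that fell short of it in replicate 4 include Csf1r (-1.04 in replicates 1 to 3 and -0.33 in replicate 4) and Lgmn (-1.33 and -0.39). Others were Fcgr3 (0.78 and 0.38), Irf7 (0.78 and 0.27) and Hk3 (1.24 and 0.55).

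**Figure D2:**
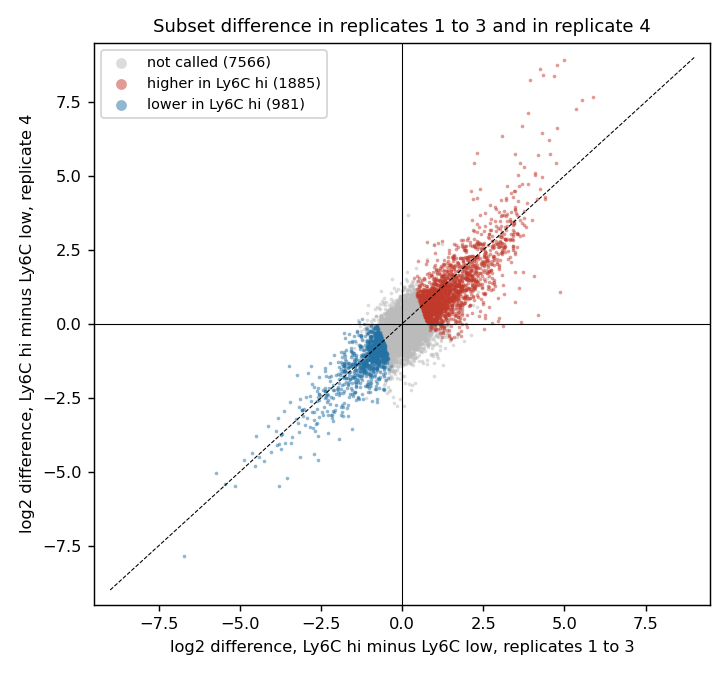
Log2 difference between Ly6C hi and Ly6C low for each of the 10432 genes tested, in replicates 1 to 3 (horizontal axis) and in replicate 4 (vertical axis). Red points are the 1885 genes called higher in Ly6C hi, blue points the 981 called lower, grey points were not called, and the dashed line marks equal differences. Most coloured points lie in the lower left and upper right quadrants.

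Of the 12 genes most increased in Ly6C hi, 4 are described first. F13a1, which encodes the coagulation factor XIII A chain, was at 1405, 1477, 1441 and 3323 RPM in Ly6C hi and at 14.5, 46.9, 18.6 and 15.2 RPM in Ly6C low, a log2 difference of 6.33 ± 0.38 (SE, n = 4 per subset, adjusted P = 1.2e-06). Vcan, the proteoglycan versican, was at 107, 108, 111 and 508 RPM against 0.909 to 2.88 RPM (5.83 ± 0.47). Fn1, fibronectin, was at 1532, 1571, 1622 and 2201 RPM against 21.7 to 59.5 RPM (5.24 ± 0.29). Replicate 4 was the highest Ly6C hi library for each of these 3 genes, and no library of the other subset came near. Gas7, an actin-binding adaptor, was at 83.5 to 94.4 RPM in Ly6C hi and at 1.15 to 2.53 RPM in Ly6C low (4.92 ± 0.18).

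The other 8 of the 12 genes with the largest difference were Fcnb, Ngp, Camp, Lcn2, S100a8, Ltf, S100a9 and Cd177. Most of them encode proteins of neutrophil granules or of the neutrophil cytosol. Ngp was at 15666, 16065, 12962 and 9604 RPM in Ly6C hi and at 405, 753, 332 and 19.2 RPM in Ly6C low (5.97 ± 0.91, adjusted P = 0.00054). The low values of Ly6C low replicate 4 widened this difference, which was 4.83 without that library. S100a8, which with S100a9 forms calprotectin, was at 3315 to 4012 RPM in Ly6C hi and at 136, 329, 139 and 10.3 RPM in Ly6C low (5.35 ± 0.81, and 4.35 without Ly6C low replicate 4). For Camp, Ltf, Lcn2, S100a9 and Fcnb the differences without Ly6C low replicate 4 were 4.61, 4.15, 4.64, 3.89 and 5.37, beside 5.77, 5.33, 5.61, 5.03 and 6.03 with it. Leaving out Ly6C low replicate 2, the highest of that subset for each, gave 6.57 for Ngp, 5.97 for S100a8, 6.46 for Camp, 6.01 for Ltf and 5.62 for S100a9. These genes remained called without either library.

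The 12 genes most increased in Ly6C low had varied functions. Cd300e, an activating receptor of monocytes, was at 4.09, 6.52, 6.79 and 2.73 RPM in Ly6C hi and at 713, 665, 717 and 858 RPM in Ly6C low, a log2 difference of -6.99 ± 0.22 (adjusted P = 4e-08). Lilra5, another activating receptor, was at 2.84 to 3.67 RPM against 140 to 208 RPM (-5.24 ± 0.16). Dusp16, a phosphatase of the JNK and p38 kinases, was at 14.4 to 17.6 RPM against 616 to 942 RPM (-5.57 ± 0.15). In each case the 4 libraries of a subset lay close together and the subsets were far apart.

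Fabp4, a fatty acid-binding protein, was at 4.37, 1.80, 4.06 and 3.20 RPM in Ly6C hi and at 201, 197, 165 and 180 RPM in Ly6C low (-5.46 ± 0.20, adjusted P = 1.1e-07). Cd36, a scavenger receptor for oxidized lipid and fatty acids, was at 11.2 to 18.7 RPM against 298 to 604 RPM (-4.82 ± 0.24). Pparg was at 15.4, 14.7, 15.3 and 17.4 RPM in Ly6C hi and at 378, 432, 387 and 376 RPM in Ly6C low, a 25-fold ratio of the means (-4.56 ± 0.11, adjusted P = 9.3e-09). All 8 libraries gave the same picture for these 3 genes, including replicate 4. The remaining 6 of the 12 were Fcgr4, Eno3, Adrb1, Ankdd1a, Tgfbr3 and Slc12a2, with log2 differences from -4.61 to -4.11. Eno3, the muscle form of the glycolytic enzyme enolase, was at 26.2 to 31.8 RPM in Ly6C hi and at 727, 721, 712 and 375 RPM in Ly6C low.

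The lists of subset markers were largely split as their names say. The shares to set beside each list here and below are those over all genes tested, 27.5% called, 18.1% higher and 9.4% lower. Of 15 classical monocyte genes tested, 12 were higher and 1 was lower in Ly6C hi, with a median log2 difference of 1.94, beside 27.5% called and a median of 0.07 over all genes. The member that was lower was Clec4e, the C-type lectin Mincle, at 42.2 to 69.3 RPM in Ly6C hi and 130 to 162 RPM in Ly6C low (-1.52 ± 0.16). Of 18 nonclassical monocyte genes tested, 16 were lower in Ly6C hi and none was higher, with a median of -2.31. Fcgr4, which the gate fixed, is among the 16. Treml4, a receptor that binds dying cells, was at 202 to 221 RPM in Ly6C hi and 1442 to 1867 RPM in Ly6C low (-3.00 ± 0.12). Itgax, which encodes CD11c, was at 94.8 to 131 RPM against 744 to 1115 RPM (-2.94 ± 0.15), and Cd274, which encodes PD-L1, at 14.4 to 27.2 RPM against 174 to 187 RPM (-2.92 ± 0.19). The 2 nonclassical genes that did not pass were Nr4a1, described below, and Cx3cr1. Cx3cr1, the fractalkine receptor that marks these cells in reporter mice, was at 70.5, 69.7, 96.6 and 143 RPM in Ly6C hi and at 98.0, 66.8, 122 and 292 RPM in Ly6C low, so the subsets overlapped (-0.44 ± 0.40, adjusted P = 0.43).

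**Figure D3:**
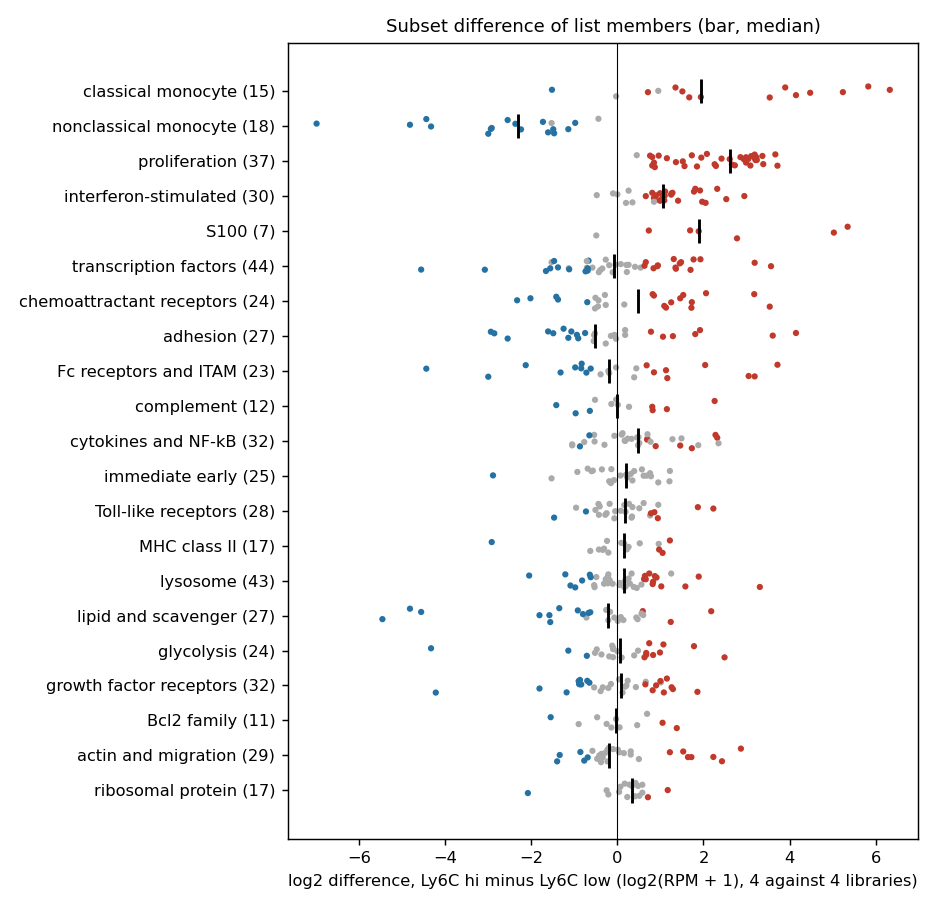
Log2 difference between Ly6C hi and Ly6C low (horizontal axis) of the tested members of 21 gene lists, with the number tested in brackets. Each point is a gene, red where called higher in Ly6C hi, blue where called lower and grey where not called, and the black bar is the median. The proliferation, interferon-stimulated and classical monocyte medians lie at 2.61, 1.07 and 1.94 and the nonclassical median at -2.31.

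Genes of the cell cycle were higher in Ly6C hi almost without exception. Of 37 proliferation genes tested, 36 were higher and none was lower, with a median log2 difference of 2.61. Mki67, the nuclear antigen of cycling cells, was at 111, 107, 116 and 78.8 RPM in Ly6C hi and at 4.96, 13, 5.27 and 7.2 RPM in Ly6C low (3.67 ± 0.26, adjusted P = 3.7e-06). Ube2c, a ubiquitin-conjugating enzyme of mitotic exit, was at 90.9 to 182 RPM against 6.67 to 18.2 RPM (3.72 ± 0.30). Top2a, the topoisomerase that untangles chromosomes, was at 87.0 to 133 RPM against 8.71 to 19.1 RPM (3.09 ± 0.23), and Cdk1, the mitotic kinase, at 57.8 to 74.6 RPM against 5.55 to 11.3 RPM (3.04 ± 0.20). These 4 genes did not overlap between the subsets, while genes of the replicative helicase differed less. Mcm5 was at 31.1 to 66.2 RPM in Ly6C hi and 23.8 to 30.2 RPM in Ly6C low (0.87 ± 0.22), and Mcm6 at 71.6 to 129 RPM and 52.6 to 78.0 RPM (0.76 ± 0.20), with overlap. The member that did not pass, named after its values were seen, was Mcm4 (0.45 ± 0.22, adjusted P = 0.15), which was lower in Ly6C hi of replicate 4. In replicate 4 alone, 30 of the 37 genes were over 1.5-fold higher in Ly6C hi. The RPM summed over the list was 1560 to 2455 in Ly6C hi and 477 to 649 in Ly6C low.

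Markers of other cell types differed between the gates, and most of them lay with Ly6C hi. The summed RPM of 15 neutrophil genes was 32738 to 35080 in Ly6C hi replicates 1 to 3 and 26027 in replicate 4, and 1252 to 2682 in Ly6C low replicates 1 to 3 and 259 in replicate 4. Of the 15, 12 were higher in Ly6C hi (median log2 difference 4.85), and 15 in replicates 1 to 3 alone. Ly6g, the antigen by which neutrophils were excluded from the sort, was nevertheless at 31.8, 29.2, 33.5 and 17.9 RPM in Ly6C hi, and at 4.61, 7.96, 4.71 and 0 RPM in Ly6C low (2.78 ± 0.57, and 2.10 without Ly6C low replicate 4). In bulk RNA, fewer cells of a type and less RNA per cell cannot be told apart. The part of neutrophil RNA in the differences of S100a8, S100a9, Camp, Ngp, Ltf and Lcn2 was not tested.

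Genes of granulocyte and monocyte progenitors moved the same way, with 9 of 11 higher in Ly6C hi and a median of 3.02. Prtn3, proteinase 3, was at 152, 146, 161 and 207 RPM in Ly6C hi and at 8.32, 20.1, 7.38 and 0.996 RPM in Ly6C low (4.45 ± 0.56, and 3.81 without Ly6C low replicate 4). Ms4a3, a membrane gene of granulocyte-monocyte progenitors, was at 41.4 to 49.4 RPM against 0.536 to 4.05 RPM (3.95 ± 0.32). Mpo, myeloperoxidase, was at 1.32 to 3.98 RPM in Ly6C hi and 0.153 to 1.10 RPM in Ly6C low (1.09 ± 0.29). The progenitor list summed to 412 to 508 RPM in Ly6C hi and 35.2 to 80.2 RPM in Ly6C low. This level stood beside the difference in the proliferation genes, and its part in that difference was not tested.

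Lymphocyte genes separated the Ly6C hi replicates from each other. The 10 NK cell genes, all called higher in Ly6C hi, summed to 702 to 731 RPM in Ly6C hi replicates 1 to 3 but to 189 RPM in replicate 4, and to 110 to 175 RPM in Ly6C low replicates 1 to 3 and 39.8 RPM in replicate 4. Klrb1c, which encodes NK1.1, was at 144, 136, 128 and 27 RPM in Ly6C hi and at 37, 31.1, 20.9 and 5.13 RPM in Ly6C low. Its log2 difference was 2.20 in replicates 1 to 3 and 2.19 in replicate 4, while the median of the NK list was 2.12 and 1.45. The call (adjusted P = 0.023) was lost without Ly6C hi replicate 1, 2 or 3 or Ly6C low replicate 3, at adjusted P from 0.051 to 0.067. The 13 T cell genes summed to 361 to 368 RPM in Ly6C hi replicates 1 to 3, 87.4 RPM in Ly6C hi replicate 4, 29.7 to 45.2 RPM in Ly6C low replicates 1 to 3 and 91.6 RPM in Ly6C low replicate 4. Of the 11 tested, 10 were called higher in Ly6C hi, although only 6 were over 1.5-fold higher in replicate 4. Cd3e, a chain of the T cell receptor complex, was at 44.5, 39.7, 41.8 and 6.24 RPM in Ly6C hi and 0.629, 2.47, 1.33 and 4.83 RPM in Ly6C low (3.22 ± 0.59, and 3.86 without Ly6C hi replicate 4). Jchain, of antibody-secreting cells, was at 627, 553, 609 and 471 RPM in Ly6C hi and 27.3, 16, 16.9 and 224 RPM in Ly6C low (3.91 ± 0.68, and 4.78 without Ly6C low replicate 4).

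Of 3 B cell genes tested, 1 was higher and 1 was lower in Ly6C hi. Cd22, which B cells share with some myeloid cells, was at 10.4 to 19.7 RPM in Ly6C hi and 96.9 to 120 RPM in Ly6C low (-2.71 ± 0.19). Plasmacytoid dendritic cell genes summed to 94.5 to 133 RPM in Ly6C hi and 10.1 to 20.9 RPM in Ly6C low, with 5 of 6 called higher, and Siglech, the lectin of those cells, was at 13.7 to 43 RPM against 2.30 to 9.40 RPM (2.53 ± 0.42). Genes of conventional dendritic cells were split, with 2 of 6 of the first type and 6 of 9 of the second type higher in Ly6C hi. The share called was 33.3% for the first type, near the 27.5% over all genes. Clec10a, a lectin of dendritic cells and macrophages, was at 25.7 to 33.3 RPM against 4.52 to 6.04 RPM (2.33 ± 0.16). Of 12 red pulp macrophage genes, 2 were higher and 3 lower, and 2 were higher and 6 lower in replicates 1 to 3. Siglec1, a sialic acid receptor of macrophages, was at 54.3 to 70 RPM in Ly6C hi and 5.97 to 7.34 RPM in Ly6C low (3.05 ± 0.14). C1qb, a chain of complement C1q, was at 27.3 to 35.5 RPM against 53.5 to 74.2 RPM (-0.97 ± 0.14). C1qa, of the same complex, was at or below 0.07 RPM in every library, under the limit of detection. Whether its amplicon captures the transcript was not tested, so absence of the transcript is not shown.

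**Figure D4:**
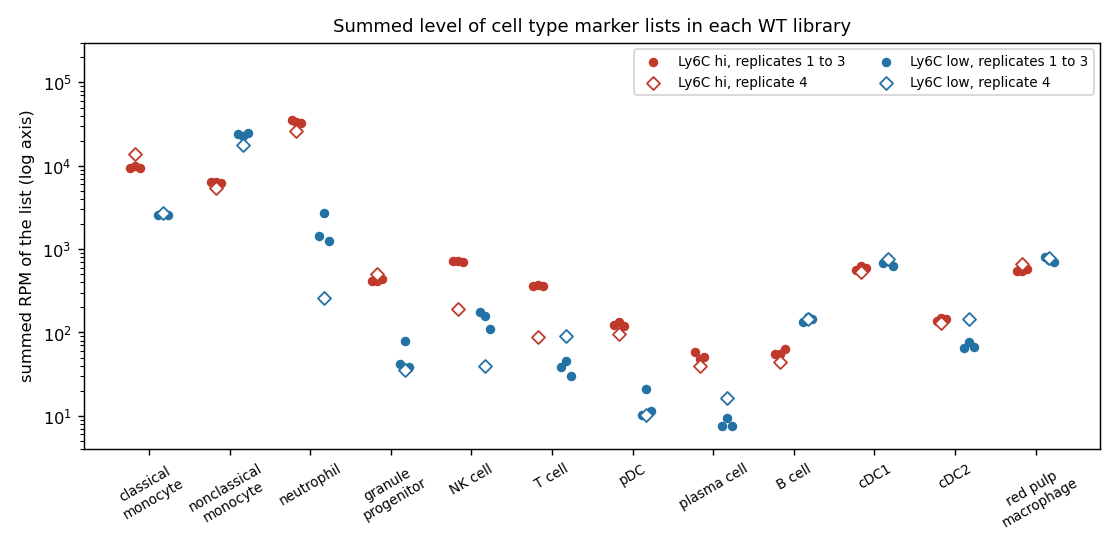
Summed RPM (vertical axis, log scale) of 12 marker lists in each of the 8 WT libraries. Red is Ly6C hi and blue Ly6C low, filled circles are replicates 1 to 3 and open diamonds replicate 4. The neutrophil list is at 26027 to 35080 RPM in Ly6C hi and 259 to 2682 RPM in Ly6C low, and the NK and T cell lists of Ly6C hi replicate 4, at 189 and 87.4 RPM, lie below those of replicates 1 to 3.

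The remaining lists of other cells had few members tested. Of 5 eosinophil genes tested, 2 were higher and 2 were lower in Ly6C hi, as were 4 and 0 of 4 plasma cell genes and 1 and 1 of 2 endothelial genes. Prg2, major basic protein, was at 85.8, 95.5, 87.7 and 9.91 RPM in Ly6C hi and 16, 27.6, 6.39 and 8.43 RPM in Ly6C low. Its call (1.98 ± 0.69, adjusted P = 0.048) was lost on leaving out any of 6 of the 8 libraries, with adjusted P from 0.077 to 0.13. Of 6 basophil and mast cell genes, 1 was higher, Hdc, the enzyme that makes histamine, at 40.4 to 69.7 RPM against 0.766 to 15 RPM (2.94 ± 0.59, and 2.23 without Ly6C low replicate 4). Among 5 erythroid and 6 platelet genes, 1 each was higher over all 8 libraries, beside 4 and 3 in replicates 1 to 3. The shares called over 8 libraries were 16.7% for basophil and mast cell, 20% for erythroid and 16.7% for platelet genes, below the 27.5% over all genes.

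Transcription factor genes were called in both directions. Of 44 tested, 15 were higher and 11 lower in Ly6C hi (59.1% called, beside 27.5% over all genes). Their median was -0.07. Besides Pparg, Tcf7l2, the effector of Wnt signalling, was lower in Ly6C hi, at 7.72 to 10.5 RPM against 60.2 to 110 RPM (-3.08 ± 0.19), as were Runx2 (-1.66 ± 0.26) and Nr1h3, the liver X receptor alpha (-1.56 ± 0.17). Pou2f2, an octamer-binding factor, was at 47.8 to 59.8 RPM in Ly6C hi and at 142, 96.5, 129 and 245 RPM in Ly6C low (-1.47 ± 0.24). Spi1, which encodes PU.1, was at 881 to 991 RPM in Ly6C hi and 1440 to 1582 RPM in Ly6C low (-0.67 ± 0.11). Tcf7l2, Runx2, Nr1h3 and Spi1 were chosen from the list after their values were seen.

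Among the factors higher in Ly6C hi, Cebpe, a factor of late granulocyte development, was at 16.9, 16, 18.1 and 13.6 RPM in Ly6C hi and at 0.699, 0.686, 0.492 and 0 RPM in Ly6C low (3.57 ± 0.21, adjusted P = 1.1e-06). Myb, a factor of haematopoietic progenitors, was at 95.4, 104, 107 and 45.6 RPM in Ly6C hi and at 21.2, 44, 22.2 and 9.58 RPM in Ly6C low (1.93 ± 0.41). Irf8, which directs monocyte and dendritic cell development, was at 677, 630, 672 and 582 RPM in Ly6C hi and at 266, 149, 268 and 414 RPM in Ly6C low (1.31 ± 0.25), a smaller gap in replicate 4 (0.49) than in replicates 1 to 3 (1.58).

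Nr4a1, Cebpb and Klf4 were not called over 8 libraries and were called with the replicate block. Nr4a1, the nuclear receptor on which Ly6C low monocytes depend, was at 1804, 1797, 1765 and 409 RPM in Ly6C hi and at 5028, 4421, 5241 and 1418 RPM in Ly6C low. It was lower in Ly6C hi within each replicate number, while replicate 4 was low in both subsets, so the groups overlapped. Over 8 libraries the log2 difference was -1.53 ± 0.54 (adjusted P = 0.053). With the replicate number as a block, the adjusted P was 4.3e-06. In replicates 1 to 3 it was -1.45 ± 0.09 (adjusted P = 3.7e-07), and in replicate 4 it was -1.79. Cebpb, which sustains Ly6C low cells, was at 1490, 778, 1419 and 610 RPM against 3446, 2661, 3118 and 801 RPM (-1.13 ± 0.46, adjusted P = 0.086, and 0.0007 with the block). Klf4 was at 511, 519, 557 and 142 RPM against 972, 481, 809 and 397 RPM (-0.71 ± 0.44, adjusted P = 0.25, and 0.018 with the block). It was not called in replicates 1 to 3 (-0.45, adjusted P = 0.09), and the difference in replicate 4 was -1.47. Nr4a1 is also an immediate early gene, and the immediate early list was low in replicate 4. The part of that in its call was not tested.

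**Figure D5:**
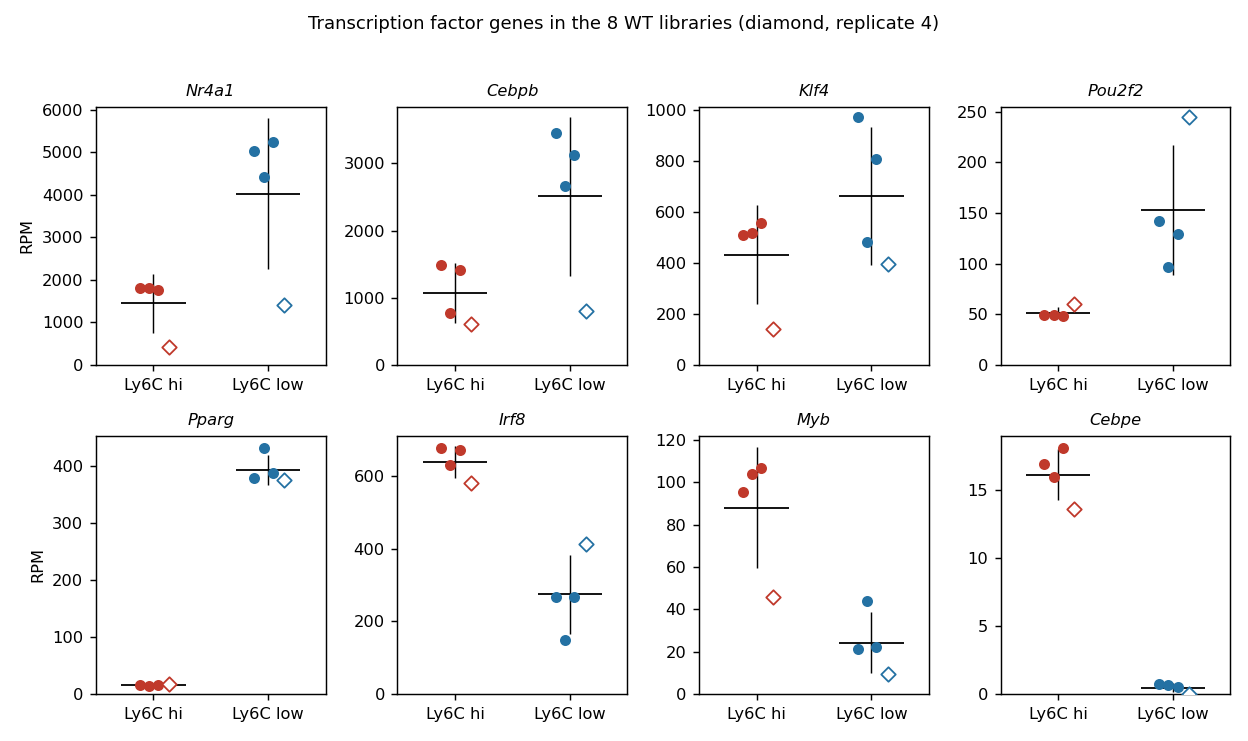
RPM (vertical axes, linear, from 0) of 8 transcription factor genes in the Ly6C hi and Ly6C low libraries of WT mice. Filled circles are replicates 1 to 3, the open diamond is replicate 4, the bar is the mean of 4 and the vertical line its SD. Nr4a1 is at 409 and 1418 RPM in replicate 4, below the other replicates of the same subset, while Pparg is at 14.7 to 17.4 RPM in Ly6C hi and 376 to 432 RPM in Ly6C low.

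Among the 250-base windows of the 8 genes with an entry among the 12 most increased in Ly6C low, 5 of 10 windows held AGGTCA, against 1 of 11 windows of 10 genes most increased in Ly6C hi. Windows of the same gene were counted separately. Pparg, for which several were listed, held AGGTCA in those at chr6:115360894-115361143 and chr6:115362099-115362348. Over all genes called, 13.2% of 973 windows of genes lower and 10.2% of 1841 windows of genes higher in Ly6C hi held it, beside 10.8% of windows of all genes tested. GAGGAA was in 26% and 23.4%, beside 23.0%. TGACTCA, the site of AP-1 dimers, was in 4.11% and 3.86%, beside 3.14%. These shares are descriptions without a test.

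Few immediate early genes separated the subsets over 8 libraries. Of 25 tested, none was higher in Ly6C hi and 1 was lower, Dusp5, a phosphatase of the ERK kinases, at 40.8, 42.1, 40.8 and 13 RPM in Ly6C hi and at 244, 291, 230 and 193 RPM in Ly6C low (-2.89 ± 0.33). In replicates 1 to 3, 6 were higher and 2 were lower, and with the replicate block 6 were higher and 5 lower. Over all 10432 genes tested, 2404 were higher and 1052 lower in replicates 1 to 3, and 2108 and 1119 with the block. Fos was at 3572, 4128, 3879 and 145 RPM in Ly6C hi and at 3399, 2446, 2870 and 38.9 RPM in Ly6C low. Jun was at 1736, 1763, 1684 and 22.3 RPM and at 1818, 1028, 1579 and 110 RPM. The gap between replicate 4 and the others was thus far wider than that between the subsets. Fos differed by 0.78 ± 1.5 (adjusted P = 0.73, and 0.022 with the block), Jun by -0.36 ± 1.4 (adjusted P = 0.87) and Dusp1 by -0.60 ± 1.34 (adjusted P = 0.77, and 0.04 with the block). In replicates 1 to 3 neither Fos (0.42) nor Dusp1 (-0.27) passed the fold threshold, and in replicate 4 they differed by 1.87 and -1.59.

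Receptors for chemoattractants differed in both directions, with 12 of 24 higher and 5 lower in Ly6C hi (70.8% called, beside 27.5% over all genes). Besides Ccr2 (3.54 ± 0.73, adjusted P = 0.0036, and 4.28 without Ly6C low replicate 4), Ccr1 was at 47.7, 53.8, 55.2 and 103 RPM in Ly6C hi and at 7.34, 13.9, 8.64 and 0.920 RPM in Ly6C low (3.18 ± 0.54, and 2.57 without Ly6C low replicate 4). Cxcr4, the receptor that retains cells in the marrow, was at 965, 947, 998 and 495 RPM in Ly6C hi and at 2240, 2710, 2445 and 1402 RPM in Ly6C low (-1.38 ± 0.27). S1pr5, a sphingosine-1-phosphate receptor that lets cells leave the marrow, was at 0.208 to 0.702 RPM in Ly6C hi and at 3.44 to 7.66 RPM in Ly6C low (-2.02 ± 0.26). Fpr1, a receptor of formylated bacterial peptides, was at 5.34 to 6.79 RPM against 26.6 to 59.5 RPM (-2.33 ± 0.25), and C5ar1, of the complement fragment C5a, at 23.7 to 27.6 RPM against 49.1 to 94.4 RPM (-1.42 ± 0.18).

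Of 27 adhesion genes, 7 were higher and 11 lower in Ly6C hi (66.7% called, beside 27.5% over all genes). Their median was -0.52. Itgal, the LFA-1 chain used in crawling on endothelium, was at 1268 to 1658 RPM in Ly6C hi and 2483 to 3525 RPM in Ly6C low (-1.14 ± 0.16). Pecam1, an adhesion molecule of the vessel wall and of leukocytes, was at 22.9 to 45 RPM against 229 to 324 RPM (-2.86 ± 0.22). The integrin chain Itga4 (-0.55 ± 0.15, adjusted P = 0.017) missed the fold threshold that it passed with TMM scaling (-0.64), and Selplg, the P-selectin ligand, was at 300 to 380 RPM in Ly6C hi and 258 to 339 RPM in Ly6C low. The subsets overlapped for both.

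Of the IgG receptors other than Fcgr4, which the gate fixed, Fcgr1, Fcgr2b and Fcgr3 were higher in Ly6C hi, by 1.16 ± 0.17, 1.13 ± 0.19 and 0.68 ± 0.14. Fcgr1, the high-affinity receptor, was at 134 to 153 RPM against 51.2 to 90.6 RPM, and Fcgr2b, the inhibitory receptor, at 55.4 to 95.7 RPM against 27.7 to 37.9 RPM. Fcer1g, the signalling chain of the activating IgG receptors, was at 2300 to 2769 RPM in Ly6C hi and 3210 to 4557 RPM in Ly6C low (-0.62 ± 0.15). Its call was lost without Ly6C hi replicate 3 or Ly6C low replicate 2, where the fold fell below the threshold. Of 23 genes of Fc receptors and ITAM signalling, 8 were higher and 9 lower, Fcgr4 among the latter. That is 73.9% called, beside 27.5% over all genes. Clec5a, a lectin that signals through the adaptor Tyrobp, was at 22.2 to 27.8 RPM in Ly6C hi and 0.613 to 1.12 RPM in Ly6C low (3.72 ± 0.17), while Tyrobp itself was at 1685 to 1771 RPM and 1797 to 2160 RPM (-0.19 ± 0.12, adjusted P = 0.24).

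Complement genes were called in both directions. C3, the central complement protein, was at 1791, 1841, 1881 and 2709 RPM in Ly6C hi and at 391, 458, 398 and 441 RPM in Ly6C low (2.26 ± 0.15), and properdin, Cfp, at 76.0 to 82.8 RPM against 39.1 to 48.9 RPM (0.81 ± 0.11). Of 12 complement genes tested, 4 were higher and 3 lower (58.3% called, beside 27.5% over all genes). Of 7 S100 genes tested, 6 were higher and none lower, among them S100a6 (1.69 ± 0.16) and S100a13 (0.73 ± 0.12), which are not in the neutrophil list. Of 17 MHC class II and costimulation genes, 3 were higher and 1 was lower, a share of 23.5%, near the 27.5% over all genes. H2-Aa was at 465 to 525 RPM in Ly6C hi and 353, 409, 390 and 847 RPM in Ly6C low (0.09 ± 0.24), and the sign differed between replicates 1 to 3 (0.36) and replicate 4 (-0.69). The called member that was lower was Cd274. H2-DMb1, a peptide exchange chain, was at 99.7 to 162 RPM against 37.2 to 63.1 RPM (1.22 ± 0.20).

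Interferon-stimulated genes were mostly higher in Ly6C hi. Of 30 tested, 23 were higher and none was lower (median 1.07, 76.7% called, beside 27.5% over all genes). In replicates 1 to 3 there were 24 higher, and 21 were over 1.5-fold higher in replicate 4. Ifi205, a member of the Ifi200 family, was at 154, 156, 154 and 120 RPM in Ly6C hi and at 16.3, 19.4, 18.6 and 17.3 RPM in Ly6C low (2.95 ± 0.13). Ifit1, an antiviral binder of RNA, was at 29.3 to 41.5 RPM against 6.39 to 16 RPM (1.81 ± 0.25). Rsad2, which encodes viperin, was at 31.7 to 36.0 RPM against 2.75 to 6.74 RPM (2.53 ± 0.23), and Usp18, which limits interferon signalling, at 26 to 40.7 RPM against 4.82 to 7.27 RPM (2.32 ± 0.18), both named after their values were seen. Irf7, the regulator of interferon genes, differed least among the called members, at 311 to 347 RPM against 181 to 258 RPM (0.66 ± 0.13, and 0.56 with TMM scaling, below the fold threshold).

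Calls of chemokine and cytokine genes depended on replicate 4. Over 8 libraries 6 of 32 were higher in Ly6C hi and 2 were lower, a share of 25%, near the 27.5% over all genes. In replicates 1 to 3 alone 14 were higher and 2 lower, and with the block 13 were higher and 5 lower. Over all 10432 genes tested, 2404 were higher and 1052 lower in replicates 1 to 3, and 2108 and 1119 with the block. Cxcl10, an interferon-induced chemokine, was at 51.0 to 68.8 RPM in Ly6C hi and 9.02 to 12.9 RPM in Ly6C low (2.32 ± 0.16), and Ccl6 was at 1221 to 1501 RPM against 698 to 721 RPM (0.89 ± 0.11). Both were alike in all 4 replicates. Ccl3, by contrast, was at 1004, 999, 947 and 6.32 RPM in Ly6C hi and 524, 362, 483 and 7.97 RPM in Ly6C low (0.77 ± 1.74, adjusted P = 0.77, and 0.019 with the block). Ccl2, the ligand of Ccr2, was at 232, 224, 242 and 2.57 RPM in Ly6C hi and at 37.5, 38.9, 35.1 and 0.230 RPM in Ly6C low (2.35 ± 1.5, adjusted P = 0.26, and 5.4e-06 with the block), and it is named after its values were seen. Levels in replicate 4 were again near nothing in both subsets. Il1b, the inflammasome-processed cytokine, was at 220, 228, 206 and 108 RPM in Ly6C hi and at 311, 317, 348 and 367 RPM in Ly6C low (-0.87 ± 0.22). In replicates 1 to 3 it missed the fold threshold (-0.57), and in replicate 4 the difference was -1.76. Tnf stayed at 0.486 to 2.20 RPM throughout.

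Of 28 Toll-like receptors and partners, 5 were higher and 2 lower over 8 libraries, a share near the 27.5% over all genes, and in replicates 1 to 3 alone 9 were higher and 5 lower. Tlr5, the sensor of flagellin, was at 11.4 to 17.3 RPM in Ly6C hi and 2.03 to 2.27 RPM in Ly6C low (2.23 ± 0.17). Tlr2 was at 18.5 to 22.4 RPM and 16.7 to 26.5 RPM, and Tlr4 was at 38.4, 41.6, 38.2 and 92.9 RPM in Ly6C hi and at 52.9, 51.2, 59.5 and 112 RPM in Ly6C low. The subsets overlapped for both and neither was called. Cd180, a relative of the Toll-like receptors, was at 141 to 209 RPM in Ly6C hi and 341 to 666 RPM in Ly6C low (-1.47 ± 0.21). Tlr8 differed by -0.43 ± 0.27 (adjusted P = 0.25), by -0.63 in replicates 1 to 3 and by 0.18 in replicate 4.

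Of 27 genes of lipid uptake and efflux, 11 were lower and 3 higher in Ly6C hi and 13 were not called. The share called was 51.9%, beside 27.5% over all genes, and the median was -0.21. Abca1 and Abcg1, which export cholesterol, were at 26.9 to 32.6 RPM and 107 to 119 RPM in Ly6C hi, and at 80.2 to 114 RPM and 261 to 348 RPM in Ly6C low (-1.58 ± 0.15 and -1.35 ± 0.12). Apoe, the lipoprotein that takes up that cholesterol, was at 63.7 to 94.3 RPM against 207 to 390 RPM (-1.81 ± 0.22). The scavenger receptor Msr1 went the other way, at 6.44 to 13.4 RPM in Ly6C hi and at 0.421 to 4.06 RPM in Ly6C low (2.18 ± 0.39). Fabp4, Cd36, Abca1 and Abcg1 are textbook targets of lipid-sensing nuclear receptors, and Pparg and Nr1h3 encode such receptors. Whether these receptors had a part in the differences of those genes was not tested.

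Lysosomal genes were divided, with 12 of 43 higher and 7 lower in Ly6C hi (44.2% called, beside 27.5% over all genes). Cd63, a tetraspanin of late endosomes and granules, was at 126, 114, 104 and 89.1 RPM in Ly6C hi and at 13.5, 13.1, 9.97 and 5.37 RPM in Ly6C low (3.31 ± 0.25). Acp5, an acid phosphatase, was at 27.5 to 33.7 RPM against 118 to 152 RPM (-2.05 ± 0.12), and Lgmn, an asparaginyl protease, at 71.9 to 123 RPM against 156 to 242 RPM (-1.09 ± 0.20). Ctsd, the major aspartic protease, was at 849 to 1045 RPM and 881 to 1046 RPM and did not separate the subsets (-0.11 ± 0.12, adjusted P = 0.52). Lamp1 was called at 0.64 ± 0.21 (adjusted P = 0.038), a call that was lost on leaving out any of 6 libraries, at adjusted P of 0.055 to 0.082. Ctsl lost its call (0.62 ± 0.12) without Ly6C hi replicate 4 or with TMM scaling, where the fold fell below the threshold. Slc29a3, the nucleoside transporter whose loss the series studies, had a log2 difference of 1.87 ± 0.19 (adjusted P = 3.6e-05) and did not overlap between the subsets.

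Of 24 glycolysis genes, 9 were higher and 3 lower in Ly6C hi (50% called, beside 27.5% over all genes). Eno3 was the most decreased member in Ly6C hi, Ldhb, a lactate dehydrogenase chain, was the most increased, at 20.9 to 22.6 RPM against 2.75 to 3.45 RPM (2.49 ± 0.14), and Ldha was at 506 to 688 RPM and 549 to 664 RPM (-0.10 ± 0.13, adjusted P = 0.58). Hk3, the hexokinase of myeloid cells, was at 155 to 193 RPM against 73.5 to 105 RPM (1.07 ± 0.14).

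Growth factor and cytokine receptors were called in both directions, with 9 of 32 higher and 10 lower (59.4% called, beside 27.5% over all genes). Csf1r, the receptor of the growth factor M-CSF, was at 743 to 989 RPM in Ly6C hi and 1241 to 1982 RPM in Ly6C low (-0.87 ± 0.16). Tnfrsf1b, a TNF receptor, was at 1244 to 2023 RPM against 2407 to 2955 RPM (-0.88 ± 0.18). Tgfbr3, a coreceptor of TGF-beta, was at 15.3, 15.6, 16.9 and 4.76 RPM in Ly6C hi and at 252, 210, 241 and 258 RPM in Ly6C low (-4.22 ± 0.32). Il1r2, a decoy receptor of interleukin 1, was called higher in Ly6C hi (1.86 ± 0.60, adjusted P = 0.034), but the subsets overlapped. The call was lost without any of Ly6C hi replicates 1 to 3 or Ly6C low replicate 3 (adjusted P from 0.06 to 0.093), and the difference was 1.22 without Ly6C low replicate 4.

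Of 11 genes of the Bcl2 family tested, 3 were called, a share near the 27.5% over all genes. Bcl2, which blocks cell death, was at 28.7, 22.8, 23.9 and 6.01 RPM in Ly6C hi and at 63.7, 65.5, 51.3 and 39.8 RPM in Ly6C low (-1.55 ± 0.40). Bcl2l11, which encodes the death-promoting Bim, was at 32 to 49.5 RPM against 14.4 to 23.5 RPM (1.05 ± 0.18), and Bad, another death-promoting member, at 19.0 to 24.3 RPM against 6.11 to 9.43 RPM (1.38 ± 0.18). Mcl1 was at 573 to 732 RPM and 432 to 1008 RPM (-0.14 ± 0.23, adjusted P = 0.68).

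Of 29 genes of the cytoskeleton and migration, 7 were higher and 5 lower in Ly6C hi (41.4% called, beside 27.5% over all genes). Vim, the filament protein vimentin, was at 3746, 3513, 3613 and 2726 RPM in Ly6C hi and at 831, 655, 690 and 404 RPM in Ly6C low (2.43 ± 0.21). Lmna, the nuclear lamin A and C gene, was at 32.1 to 70.2 RPM against 4.14 to 11.5 RPM (2.87 ± 0.31), and Anxa1, a membrane-binding annexin, at 789 to 983 RPM against 159 to 213 RPM (2.23 ± 0.12). Myo1g, a myosin of blood cells, was on the Ly6C low side, at 240 to 266 RPM against 451 to 929 RPM (-1.40 ± 0.19). Of 17 cytosolic ribosomal protein genes, 2 were higher and 1 was lower, a share of 17.6%, below the 27.5% over all genes. The most abundant amplicon in Ly6C hi was that of Lyz2, lysozyme, at 24372, 24347, 24674 and 29513 RPM in Ly6C hi and at 11388, 13557, 11632 and 7554 RPM in Ly6C low (1.25 ± 0.22). In Ly6C low replicates 1 to 3 it was that of Actb, at 17215 to 21044 RPM in Ly6C hi and 6678 to 22233 RPM in Ly6C low (0.31 ± 0.35, adjusted P = 0.53). Cst3, the protease inhibitor cystatin C, was at 3823 to 4131 RPM in Ly6C hi and at 10609, 10132, 11461 and 4617 RPM in Ly6C low (-1.11 ± 0.27).

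The subset difference of WT mice was then set against that of Slc29a3-/- mice, to ask where the genotypes differ in it. Libraries of both knockout genotypes carry barcodes 24 to 46, while WT replicates 1 to 3 carry barcodes 11 to 16. For those replicates, genotype cannot be told apart from the barcode range and from what went with it in WT mice. The difference between Ly6C hi and Ly6C low differed between the genotypes for 967 of 11042 genes (8.76%, limma interaction, fold over 1.5 and adjusted P under 0.05), with 513 higher and 454 lower in WT. Without Ly6C low replicate 4 of WT mice the counts were 771 and 452. With TMM scaling the split was 373 and 638. With replicate 4 as the only WT library of each subset, 55 and 140 genes were called, and the spread of the lone libraries was then taken from the other groups. The neutrophil genes had the most negative values. S100a9 averaged 8277 ± 834 RPM in the Ly6C hi and 445 ± 346 RPM in the Ly6C low libraries of WT mice (mean ± SD over 4), and at 29278 ± 8080 and 33.5 ± 24.7 RPM in Slc29a3-/- mice, an interaction of -4.97 ± 1.12 on the log2 scale (adjusted P = 0.0056). Ltf, Camp, Wfdc21 and S100a8 followed, at -4.91, -4.86, -4.82 and -4.62. With replicate 4 as the only WT library these 5 values lay between -2.38 and -1.57 and none was called (adjusted P from 0.17 to 0.73).

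The most positive interactions were those of Slc4a1, Cd72, Cadm1, Cd5l and Jchain. Slc4a1, the anion exchanger of red cells, was at 2.02 ± 0.529 RPM in Ly6C hi and 1.35 ± 1.52 RPM in Ly6C low of WT mice, and at 0.854 ± 0.639 and 54.8 ± 7.47 RPM in Slc29a3-/- mice (5.50 ± 0.52, adjusted P = 7.4e-07, and 3.95 with adjusted P = 0.0086 for replicate 4 as the only WT). Cadm1, an adhesion molecule, was at 15.5 ± 4.91 and 18.9 ± 3.90 RPM in WT and at 0.933 ± 0.365 and 49.9 ± 19.5 RPM in Slc29a3-/- mice (4.34 ± 0.47, and 3.31 with adjusted P = 0.021). Cd72, a B cell coreceptor, was at 14.9 ± 6.19 and 16.6 ± 6.02 RPM in WT and at 5.0 ± 2.33 and 163 ± 49.0 RPM in Slc29a3-/- mice (4.59 ± 0.68, and 2.82 with adjusted P = 0.18). Cd5l, a secreted protein of macrophages, was at 15.1 ± 3.38 and 26.7 ± 10.6 RPM in WT and at 1.31 ± 0.422 and 80.4 ± 33.4 RPM in Slc29a3-/- mice (4.29 ± 0.76, and 4.42 for replicate 4 as the only WT). Its WT difference was not called over 8 libraries (-0.74). It was called with the block (-0.74, adjusted P = 0.0081) and in replicates 1 to 3 (-0.78, adjusted P = 0.007). Jchain was at 565 ± 69.8 and 71.1 ± 102 RPM in WT and at 146 ± 79.2 and 177 ± 153 RPM in Slc29a3-/- mice (3.99 ± 0.94, and 1.14 with adjusted P = 0.78). For Cadm1, Cd5l and Jchain the fold between the genotypes was larger in Ly6C hi, which was lower in Slc29a3-/- mice, than in Ly6C low.

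Against Slc29a3-/- Tlr7-/- mice, which share the WT libraries with the comparison above, 7 of 11042 genes were called (0.0634%), 4 higher and 3 lower in WT. At an unadjusted P under 0.05 and a fold over 1.5 there were 387 and 474. Itgb3, an integrin chain, was at 30.2 ± 2.33 and 36.8 ± 3.65 RPM in WT and at 41.4 ± 6.24 and 123 ± 41.7 RPM in Slc29a3-/- Tlr7-/- mice (1.23 ± 0.24, adjusted P = 0.048). Fcrl5, an Fc receptor-like gene, was listed at 0 to 0.140 RPM in Ly6C hi and was at 2.46 ± 0.798 RPM in Ly6C low of WT mice, and at 12.8 ± 3.65 RPM in Ly6C low of Slc29a3-/- Tlr7-/- mice (1.90 ± 0.33, adjusted P = 0.025). S100a9 had an interaction of -5.90 ± 1.12 (adjusted P = 0.046). The other 4 genes, named after their values were seen, were Epcam (2.06 ± 0.37), Pdzk1ip1 (1.38 ± 0.22), Cbr2 (-1.79 ± 0.31) and Dpep3 (-1.84 ± 0.36). With replicate 4 as the only WT library S100a9, Fcrl5 and Itgb3 were not called (adjusted P = 0.93 for each). With the replicate block 0 and 1 genes were called, and without Ly6C low replicate 4 of WT mice 38 and 42.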

How the data were processed

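Total RNA of sorted spleen cells was amplified by the study as an amplicon panel with 1 amplicon per gene and sequenced on an Ion Proton. The authors deposited 1 table of RPM (reads of an amplicon scaled to the library total) for 23930 amplicons in 24 libraries, with no reads written as 0.0001, set here to 0. The methods name Cutadapt, STAR on mm10, HTSeq and DESeq2, and which step wrote the table is not stated. The precision of a value is limited by its reads, and the detection limit of 3 reads covers counting error only. The 27 gene names turned into dates were repaired.

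Groups came from the labels. Genes that reached 1 RPM in 4 or more of the 8 WT libraries were tested as log2(RPM + 1) with limma 3.58.1 (R 4.3.3, empirical Bayes with trend). Genes over 1.5-fold with a Benjamini-Hochberg adjusted P under 0.05 were called, and differences are Ly6C hi minus Ly6C low with their SE. A fold on this scale understates the change of low genes. Interactions were fitted on all 24 libraries. Single markers had an exact permutation test (Python 3.11.15, scipy 1.17.1). The scripts were tested on simulated data.

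The members and gene lists were chosen with earlier results of these data known. Genes named were the markers, the 12 largest and 12 smallest called differences (mean of at least 10 RPM, no overlap, and the same direction in replicates 1 to 3 and in replicate 4), the 5 most abundant genes, for each list its examples and its most extreme called members, and the extreme interactions; others are marked as chosen after their values were seen. Deviations of libraries with the same replicate number from their subset means correlated at 0.32, 0.26, 0.26 and 0.61 for replicates 1 to 4, and unmatched pairs among replicates 1 to 3 correlated at 0.25 to 0.32. All 4 matched values exceed 0.1, the preset limit for a paired fit, but they set only replicate 4 apart and do not show pairing by number. A fit with the replicate number as a block was an alternative. Ly6c1, Ly6c2 and some list members were not analysed here, and some results are not reported here.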

Additional observations from a re-analysis of the deposited data

Results flagged for a closer look

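In 274 sets of 4 libraries, one per subset and gene named here, 62 (22.6%) held a library that stood apart by Dixon's criterion at the 95% level, where chance gives about 1 in 20. Of these, 53 were replicate 4. In RPM, another Ly6C hi replicate was the highest for Ctsd (1045, replicate 2), C1qa (0.07, replicate 3), Fcrl5 (0.14, replicate 3) and Treml4 (221, replicate 3). In RPM, Ly6C hi replicate 4 was the highest for Adgre4 (505), Apoe (94.3), C3 (2709), Ccr1 (103), Ccr2 (1783), Cd180 (209), Clec5a (27.8), Ddx3y (97.0), F13a1 (3323), Fn1 (2201), Itgal (1658), Lamp1 (1278), Lgmn (123), Lyz2 (29513), Pou2f2 (59.8), Tlr4 (92.9), Tlr8 (231), Tnfrsf1b (2023) and Vcan (508). In RPM, another Ly6C hi replicate was the lowest for S1pr5 (0.208, replicate 2). In RPM, Ly6C hi replicate 4 was the lowest for Camp (1306), Ccl3 (6.32), Cd274 (14.4), Cd3e (6.24), Cd72 (5.62), Cxcr4 (495), Dusp1 (51.6), Dusp5 (13), Fos (145), Hdc (40.4), Ifi205 (120), Jun (22.3), Klf4 (142), Klrb1c (27), Nr4a1 (409), Pecam1 (22.9), Prg2 (9.91), Siglech (13.7), Tgfbr3 (4.76) and Xist (0). In RPM, another Ly6C low replicate was the highest for C1qa (0.07, replicate 1), Apoe (390, replicate 2), Cdk1 (11.3, replicate 2) and F13a1 (46.9, replicate 2). In RPM, Ly6C low replicate 4 was the highest for Ankdd1a (39.1), Ccr2 (223), Ddx3y (197), Fcgr2b (37.9), Fpr1 (59.5), H2-Aa (847), Jchain (224), Lilra5 (208), Msr1 (4.06), S100a6 (10.3) and Tlr4 (112). In RPM, Ly6C low replicate 4 was the lowest for Dusp1 (158), Eno3 (375) and Fn1 (21.7).

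The 10 genes listed first are the extremes, in both directions, among the 967 called in the interaction test against Slc29a3-/- mice. The other genes of the report were not looked up among those 967. The differences between the genotypes, on the log2 scale, were 5.50 for Slc4a1, 4.59 for Cd72, 4.34 for Cadm1, 4.29 for Cd5l, 3.99 for Jchain, -4.97 for S100a9, -4.91 for Ltf, -4.86 for Camp, -4.82 for Wfdc21 and -4.62 for S100a8. Against Slc29a3-/- Tlr7-/- mice, where 7 genes were called, they were 1.90 for Fcrl5, 1.23 for Itgb3 and -5.90 for S100a9. The others called were Epcam (2.06), Pdzk1ip1 (1.38), Cbr2 (-1.79) and Dpep3 (-1.84).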

How the results depend on the processing

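Of 135 single genes, 107 were called, and no called gene changed sign under any of 19 alternative settings, which leaves out thresholds. Many of these genes were named because they were called in the same 8 libraries. Some also had to go the same way in replicates 1 to 3 and in replicate 4. Their stable signs were largely set by that choice and are no test of the result. Genes called higher and lower in Ly6C hi numbered 1885 and 981. They numbered 1640 to 2283 and 873 to 1016 with 1 library left out, 1675 and 1243 with TMM scaling, 1114 and 728 with a mean of at least 10 RPM, 1165 and 458 at a fold over 2, and 526 and 466 in replicate 4 only, where the spread came from the other groups. With the replicate block they numbered 2108 and 1119, and the calls gained beside the report's values were the only ones it changed among single genes named by the rule. For the interaction with Slc29a3-/- mice, the 513 and 454 genes became 384 to 771 and 365 to 452 with 1 WT library left out, 309 and 314 with a mean of at least 10 RPM, 373 and 638 with TMM scaling, 588 and 441 with the replicate block, 55 and 140 with replicate 4 as the only WT, and 1356 and 877 at an unadjusted P. For Slc29a3-/- Tlr7-/- mice, the 4 and 3 genes by limma became 0 to 38 and 0 to 42 with 1 WT library left out, 3 and 1 with TMM scaling, 2 and 12 with a pseudocount of 0.1, 0 and 1 with the replicate block, 0 and 0 with a mean of at least 10 RPM or with replicate 4 as the only WT, and 387 and 474 at an unadjusted P under 0.05. Fewer genes tested, fewer samples or the threshold itself lie behind some of these changes, and otherwise the cause was not tested. The planned edgeR and DESeq2 fits were not run, since a check of units took the 0.0001 written for no reads as the step between values. With 0.0001 set to 0, 100% of the values under 5 RPM lay at whole reads in the 8 WT libraries. Differences of genes near 3 reads are limited by depth.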
